A study of Bos grunniens with 12 samples.

Results

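The insulin-like growth factor (IGF) system was followed in the testis of yaks of 2 ages. Its members were taken by gene symbol, as every row of the deposited expression table named IGF1, IGF2, IGF1R, IGF2R or IGFBP2 to IGFBP7. Of these 10 symbols, 9 had a row, on 12 of the 20953 gene identifiers in the table, and no row carried the symbol IGF2. Testes came from 3 yaks aged 1.5 years, not yet sexually mature (Y group), and from 3 mature yaks aged 5 years (M group). Each testis was sequenced as an input library, which holds fragmented mRNA, and as a library immunoprecipitated with an antibody against N6-methyladenosine (m6A), a methyl mark on mRNA. The 6 input libraries have a value for every gene, in FPKM (fragments relative to transcript length and to all fragments mapped in that library), and the immunoprecipitated libraries enter only through a table of m6A peaks that differed between the ages. No treatment is given for any animal, and each of the 6 input libraries came from a different yak. The Y testes were obtained by castration and the M testes from euthanized yaks, so age and mode of collection cannot be told apart.

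IGF1 and IGF2 are small secreted proteins related to insulin that promote growth and survival of cells. They act through IGF1R, a receptor tyrosine kinase, whereas IGF2R, also known as the cation-independent mannose 6-phosphate receptor, takes up IGF2 for breakdown and sorts lysosomal enzymes. Most of the extracellular ligand is held by IGF binding proteins, which prolong its life and control its access to the receptor. In the testis the system is known for its part in the proliferation of Sertoli cells and in steroid production by Leydig cells.

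Several properties of the libraries bear on every value below. Ages in the sample titles set the groups, since the stage written in another field of the record is the reverse for every sample. The libraries of the Y group carried more mRNA of spermatids, the haploid germ cells, than those of the M group, although the Y group is labelled as not yet mature. The age labels are therefore in doubt. Y and M below mean the libraries labelled 1.5 and 5 years, and the sign of every difference between them would be reversed if the labels were exchanged. The summed FPKM of 4 elongating spermatid markers (TNP1, ODF1 and others) was 1190, 1150 and 1170 in the Y group and 263, 849 and 731 in the M group. Summed markers of spermatocytes, the germ cells in meiosis, were 48.8, 49.5 and 48.2 in the Y group and 46.3, 52.5 and 53.7 in the M group. In sections of testes before maturity, the paper saw no germ cells beyond spermatogonia and few primary spermatocytes. Both groups carried spermatid mRNA, so neither has that picture under either labelling. Markers of Sertoli cells, the somatic cells of the seminiferous tubule, had summed FPKM of 86.6, 86.1 and 73.7 in the Y group and 257, 108 and 135 in the M group. Markers of peritubular and stromal cells summed to between 20.8 and 24.1 in the Y group and to between 32.2 and 50.4 in the M group. Epididymal epithelium, which could be carried along with a testis, had summed marker levels between 0.845 and 1.98, with CRISP1 listed at 0 in every library. Most of the sum came from a row of LCN8 (ENSBGRG00000006839) annotated only as a membrane component. The CRISP1 row carries terms of transposition, so both identities rest on the symbol alone. Of the M libraries, replicate 2 was the closest to the Y group, with Pearson correlations across genes of 0.942 to 0.947 with the Y libraries, against 0.817 to 0.837 for replicate 1 and 0.912 to 0.917 for replicate 3. Depth judged from the lowest values was alike, between 0.995 and 1.1 times that of Y replicate 1. The FPKM of a library summed to between 116187 and 139921, and the table gives no fragment numbers. These are bulk samples, in which fewer cells of a type and less RNA per cell cannot be told apart.

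The 9 genes spanned a wide range of mRNA levels (plot of FPKM by member). In the Y group the order of mean FPKM was IGFBP2, IGFBP7, IGF1R, IGFBP6, IGFBP3, IGFBP4, IGF2R, IGF1 and IGFBP5, from 34.2 down to 0.445. Only IGFBP2 and IGFBP7 had libraries that overlapped their neighbour in this order. In the M group the order was IGFBP7, IGFBP2, IGF1R, IGFBP6, IGFBP3, IGF2R, IGFBP4, IGFBP5 and IGF1, from 70.2 down to 0.977. There the libraries of IGFBP7 and IGFBP2 overlapped, as did those of IGF1R and IGFBP6, and the 4 lowest members overlapped each with the next. IGFBP5 thus stood below IGF1 in all 3 libraries of the Y group, while in the M group the ranges of these genes overlapped.

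**Figure D1:**
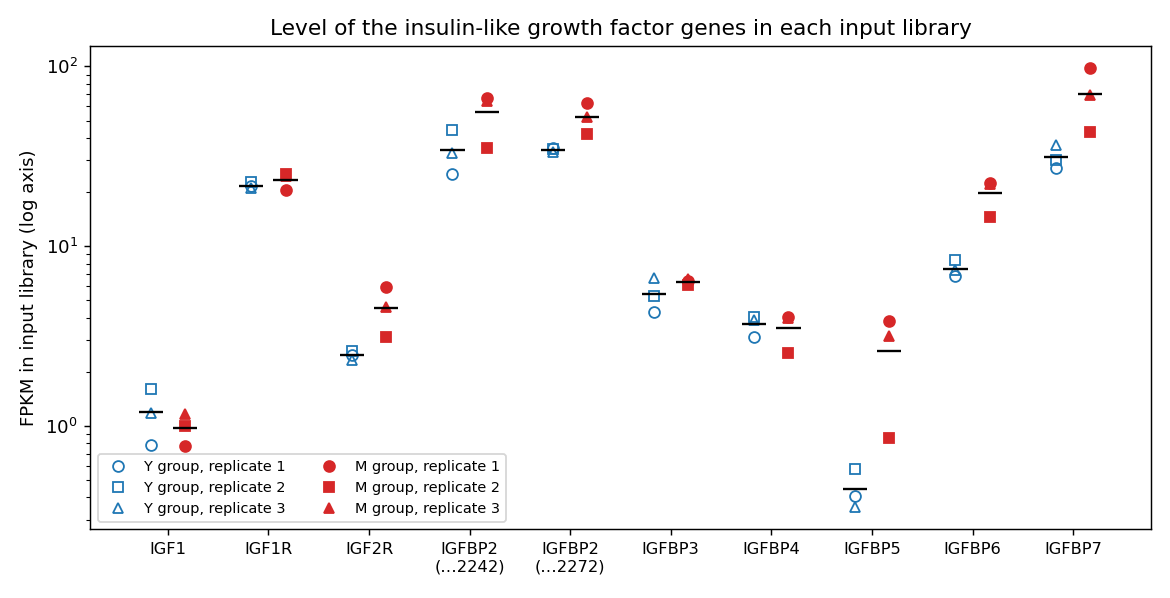
FPKM on a log scale of the 10 tested rows of the 9 IGF system genes in input RNA of the Y group (1.5 years) and the M group (5 years). There is 1 point per animal and a bar for the group mean, and both rows of IGFBP2 are shown. IGFBP2, IGFBP7 and IGF1R lie above 20 FPKM in all 6 libraries, whereas IGF1 stays below 2 FPKM in each.

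The question of the comparison was which members differed in mRNA level between the ages. Of the 12 rows, 10 passed the filter of a mean of 0.5 FPKM and were tested with limma on log2(FPKM + 0.1) together with all genes. IGFBP5, IGFBP6 and IGFBP7, IGF2R and 1 of the rows of IGFBP2 were higher in every M library than in every Y library, whereas IGF1, IGF1R, IGFBP3, IGFBP4 and the other row of IGFBP2 overlapped. No member reached an adjusted p below 0.05 in limma, where 4 of 12437 genes (0.0322%) did. At an unadjusted p below 0.05, 5 of the 10 rows were higher in the M group, against 14.2% of all tested genes, and 0 were lower, against 10.9%. Those 5 were also the rows without overlap, against 19.8% of all genes without overlap and higher in the M group. The median log2 difference between the groups was 0.63 over the 10 rows and 0.0426 over all tested genes. M replicate 2 was the M library nearest to the Y mean in 7 of the 10 rows and in all 5 with an unadjusted p below 0.05. Without this library, 6 of the 10 rows had an adjusted p below 0.05 in limma and all of them were higher in the M group, while 10.5% of all tested genes were then called higher and 19.3% were called in either direction. Leaving out any other single library gave 0 member rows with an adjusted p below 0.05. The values without M replicate 2 given below leave out the M library nearest to the Y group. Larger differences and smaller p-values follow from that choice over many genes, so they are no separate evidence of a difference.

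**Figure D2:**
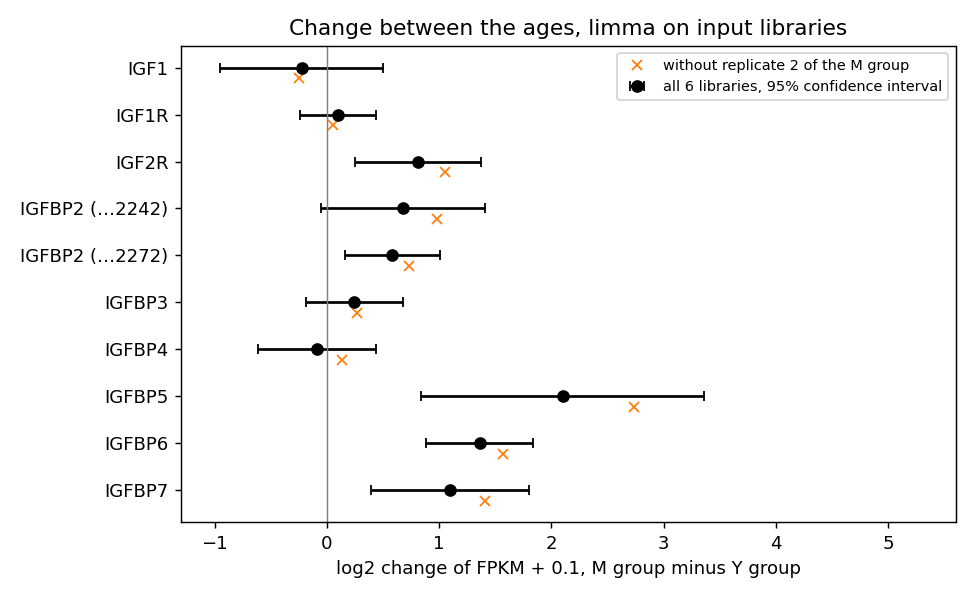
Difference in log2(FPKM + 0.1) between the M and Y groups for the 10 tested rows, as the limma estimate from all 6 libraries with its 95% confidence interval (black) and the estimate without M replicate 2 (orange crosses). The intervals of IGF2R, IGFBP5, IGFBP6, IGFBP7 and 1 row of IGFBP2 lie above 0, and those of the other 5 rows include 0.

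Among the ligands, IGF1 (ENSBGRG00000000290) was a low transcript at both ages. It measured 0.781, 1.6 and 1.18 FPKM in the Y group and 0.769, 1.0 and 1.16 FPKM in the M group. The groups overlapped, with means of 1.19 ± 0.411 and 0.977 ± 0.198 FPKM (SD, n = 3). The log2 difference was -0.22 with a standard error of 0.31 and an interval from -0.95 to 0.50 (limma, adjusted p = 0.655). It became 0.01 when Y replicate 2, the highest library, was left out. Another row under the symbol IGF1 (ENSBGRG00000000346) was listed at 0 in 5 libraries and at 0.248 FPKM in M replicate 2, and the table annotates it with terms of a chaperonin complex rather than of a growth factor. IGF2, the other ligand, was not analysed here for want of a row under its symbol, so the planned ratio of IGF2 to IGF1 was not computed.

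The receptors differed from each other in level and in pattern. IGF1R (ENSBGRG00000006060), the signalling receptor, was abundant and nearly level, at 21.5, 22.6 and 21.0 FPKM in the Y group and 20.5, 25.1 and 24.5 FPKM in the M group. Its log2 difference of 0.10 had a standard error of 0.14 and an interval from -0.24 to 0.44 (limma, adjusted p = 0.663), so a change of more than 0.44 on this scale lies outside the interval. IGF2R (ENSBGRG00000021970), the clearance receptor, measured 2.49, 2.61 and 2.32 FPKM in the Y group and 5.9, 3.13 and 4.61 FPKM in the M group. All M libraries were above all Y libraries, with means of 2.47 ± 0.144 and 4.55 ± 1.38 FPKM (SD, n = 3). The log2 difference was 0.81 with a standard error of 0.24 (limma, unadjusted p = 0.011, adjusted p = 0.154). Without M replicate 2 it was 1.05 (adjusted p = 0.0232). A further row under the symbol IGF2R (ENSBGRG00000026486) was at 0.0319 FPKM in Y replicate 1 and listed at 0 in the other libraries, with terms of a retrotransposon.

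Set against each other within a library, IGF1R exceeded IGF2R in all 6 libraries. The ratio of their FPKM was 8.62, 8.68 and 9.06 in the Y group and 3.47, 8.01 and 5.32 in the M group. The log2 ratio of IGF2R to IGF1R was -3.08 (SD 0.036) in the Y group and -2.38 (SD 0.59) in the M group, and the ranges did not overlap. The difference of 0.71 had an exact two-sided permutation p of 0.1, the smallest that 3 against 3 libraries allow. The 3 M libraries were far more scattered in this ratio than the 3 Y libraries, and M replicate 2 lay close to the Y values.

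Of the binding proteins, IGFBP5 and IGFBP6 had the largest differences in log2 level among all members. IGFBP5 (ENSBGRG00000002228), which also binds extracellular matrix, was the lowest member of the Y group, at 0.406, 0.577 and 0.351 FPKM, and measured 3.83, 0.85 and 3.17 FPKM in the M group. M replicates 1 and 3 were well above the Y libraries, and M replicate 2 was just above them. The log2 difference was 2.10 with a standard error of 0.54 and an interval from 0.84 to 3.36, or 4.29-fold (limma, unadjusted p = 0.0055, adjusted p = 0.154). Since the gene is low, the size depends on the pseudocount, and a pseudocount of 1 gave 1.21. Without M replicate 2 the difference was 2.74, or 6.68-fold (adjusted p = 0.0114).

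IGFBP6 (ENSBGRG00000002440), a binding protein with a preference for IGF2, measured 6.83, 8.34 and 7.34 FPKM in the Y group and 22.5, 14.6 and 22.3 FPKM in the M group. Every M library was well above the highest Y library, and the means were 7.5 ± 0.769 and 19.8 ± 4.48 FPKM (SD, n = 3). The log2 difference was 1.36 with a standard error of 0.20 and an interval from 0.88 to 1.84, or 2.57-fold. It had the smallest p of the 10 rows (limma, unadjusted p = 0.000253, adjusted p = 0.129). Leaving out any single library gave between 1.26 and 1.57.

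IGFBP7 (ENSBGRG00000020216), a related protein that binds IGFs with low affinity, measured 27.2, 30.2 and 36.4 FPKM in the Y group and 98.1, 43.3 and 69.3 FPKM in the M group. The M libraries lay above the Y libraries but spread widely, with means of 31.3 ± 4.69 and 70.2 ± 27.5 FPKM (SD, n = 3). The log2 difference was 1.10 with a standard error of 0.30, or 2.14-fold (limma, unadjusted p = 0.00784, adjusted p = 0.154), and 1.41 without M replicate 2 (adjusted p = 0.021). The terms attached to this row are those of a reverse transcriptase and an endonuclease, so its identity rests on the symbol alone.

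IGFBP2, which is made by Sertoli cells among others, stood on 2 identifiers of similar level. The row with the terms of an IGF binding protein (ENSBGRG00000002242) measured 25.3, 44.2 and 33.1 FPKM in the Y group and 67.0, 35.2 and 64.4 FPKM in the M group. Here M replicate 2 fell within the Y range, and the log2 difference of 0.68 had a standard error of 0.31 and an interval from -0.05 to 1.41 (limma, adjusted p = 0.219). The other row (ENSBGRG00000002272), which carries no terms, measured 35.0, 34.7 and 33.4 FPKM in the Y group and 62.7, 41.9 and 52.1 FPKM in the M group. Its groups did not overlap, with a log2 difference of 0.58 and a standard error of 0.18 (limma, unadjusted p = 0.0139, adjusted p = 0.154). Without M replicate 2 the differences were 0.98 (adjusted p = 0.0437) and 0.73 (adjusted p = 0.0302). Whether these rows are parts of 1 gene cannot be told from the table.

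IGFBP3 and IGFBP4 showed no difference beyond the spread of the libraries. IGFBP3 (ENSBGRG00000020066), the main carrier of IGFs in blood, measured 4.3, 5.29 and 6.66 FPKM in the Y group and 6.39, 6.09 and 6.54 FPKM in the M group. Its M libraries were close together and lay inside the Y range, and the log2 difference was 0.24 with an interval from -0.19 to 0.68 (limma, adjusted p = 0.411). IGFBP4 (ENSBGRG00000017437), which mainly restrains IGF action, measured 3.12, 4.05 and 3.87 FPKM in the Y group and 4.03, 2.53 and 3.97 FPKM in the M group. Only M replicate 2 stood below the Y libraries. The log2 difference was -0.09 with an interval from -0.61 to 0.44 (limma, adjusted p = 0.819), and its sign turned when that library was left out (0.13) and when libraries were scaled to the sum of their FPKM (0.04).

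Added over IGFBP2 to IGFBP7, with the first row of IGFBP2, the binding proteins came to 67.1, 92.7 and 87.7 FPKM in the Y group and to 202, 103 and 170 FPKM in the M group. IGFBP2 and IGFBP7 together made up most of the sum in all 6 libraries. The share of IGFBP6 was 10.2%, 9.0% and 8.36% in the Y group and 11.1%, 14.2% and 13.1% in the M group, without overlap. The share of IGFBP4 was between 4.36% and 4.64% in the Y group and lower, between 2.0% and 2.46%, in the M group. Binding protein mRNA exceeded IGF1 mRNA in every library, by 85.9, 57.8 and 74.6 times in the Y group and by 263, 102 and 146 times in the M group. Without IGFBP7 the sums were 39.9, 62.5 and 51.3 FPKM in the Y group and 104, 59.3 and 100.0 FPKM in the M group, and M replicate 2 then lay within the Y range.

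**Figure D3:**
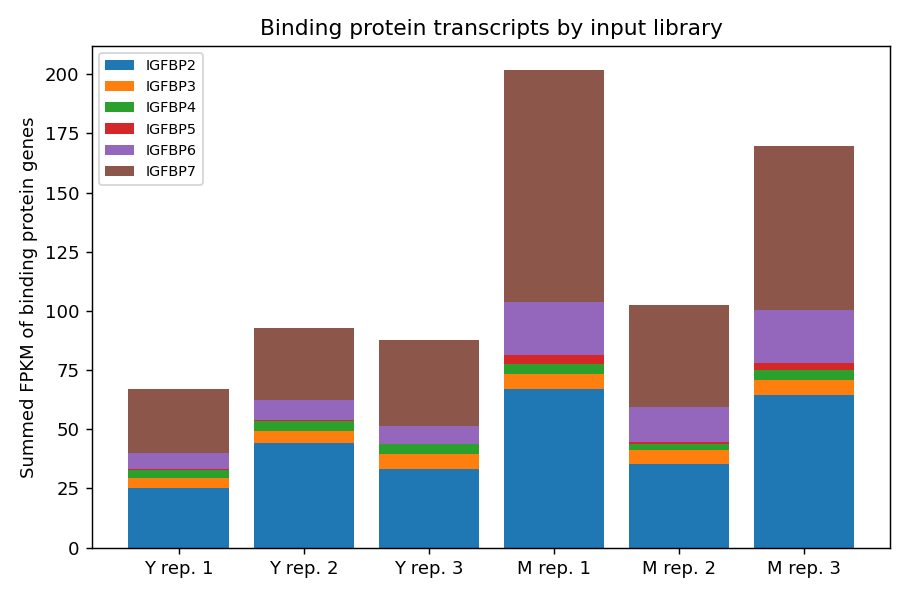
Summed FPKM of IGFBP2 to IGFBP7 in each of the 6 input libraries, starting at 0 and divided by gene. The sums of the M group (202, 103 and 170 FPKM) all lie above those of the Y group (67.1 to 92.7 FPKM), and M replicate 2 is the lowest of its group.

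The m6A data asked which members carried a peak that differed between the ages. Of the 9 genes, IGF2R and IGFBP5 carried such a peak, and the other 8 of the 10 symbols had no row among the 1438 differential peaks on 1207 genes. Of the 12437 genes tested in the input libraries, 9.29% had at least 1 differential peak. Both genes with a peak were among the members higher in the M input libraries, where 5 of the 10 tested rows were higher without overlap. The share of all genes with a peak that were higher was not counted, so no link between peak and level is drawn. The peak table holds positions, widths and annotation, with neither a direction, a fold change nor a p per peak, and no value per animal.

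IGF2R, on the minus strand of chromosome 10 (104258350 to 104380749, LU_Bosgru_v3.0, 122400 bp), carried 3 differential peaks. A total of 25 genes had 3 peaks and 12 had more, and 0.297% of the genes tested in the input libraries had 3 or more. A peak of 2693 bp at chr10:104319895-104322587 was annotated to exon 11 of 51, and a peak of 1460 bp at chr10:104315394-104316853 to exon 14. These lay 3041 bp apart near the middle of the gene, beginning 47.5% and 52.2% of the way from its start. A short peak of 150 bp at chr10:104259734-104259883 was annotated to exon 49, 98.7% of the way along the gene and 1384 bp from its 3′ end. Widths are measured on the genome with introns included, so the wide peaks may hold fewer bases of mRNA than their width. They exceed the median of 398 bp over all peaks, while the exon 49 peak stands at the percentile 12.2 of peak widths.

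IGFBP5, on the plus strand of chromosome 2 (35211000 to 35238586, 27587 bp), carried 1 differential peak of 3015 bp at chr2:35234038-35237052. The table places it in the 3′ untranslated region. It covers 10.9% of the gene, begins 83.5% of the way along it and ends 1534 bp before its end. The peak is thus in the last part of the gene, unlike the wide peaks of IGF2R. The end of the coding sequence is not given, so whether the whole peak lies downstream of it cannot be told.

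**Figure D4:**
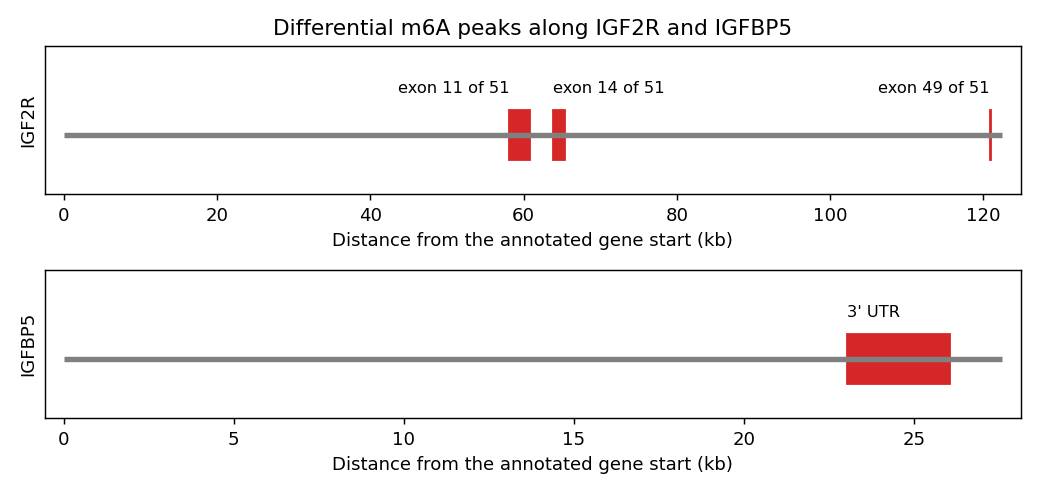
Differential m6A peaks (red, drawn to scale on the genome) along IGF2R and IGFBP5 (grey lines), against the distance in kb from the annotated start of the gene. IGF2R holds peaks of 2693 and 1460 bp near its middle and 1 of 150 bp near its 3′ end. IGFBP5 holds 1 peak of 3015 bp annotated to its 3′ untranslated region.

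The wider pathway was read from 6 lists with 46 symbols, of which 36 had a row and 28 were tested. At an unadjusted p below 0.05, 6 of these 28 were higher in the M group and 1 was lower (limma), 0 had an adjusted p below 0.05, and the median log2 difference was 0.25. The shares of all tested genes stand above, at 14.2% and 10.9%. The count of higher genes was 10 without M replicate 2 and 3 without M replicate 3, and the count of lower genes was 0 without any of 5 of the 6 libraries.

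Among insulin receptors and adaptors, 3 of 8 tested genes were higher and 1 was lower. GRB14, an adaptor that restrains the insulin receptor, measured 1.25, 1.33 and 1.4 FPKM in the Y group and 5.16, 2.49 and 4.77 FPKM in the M group. Its log2 difference was 1.50 with a standard error of 0.28 (limma, unadjusted p = 0.00104, adjusted p = 0.154). The row carries terms of a reverse transcriptase and of transposition, so its identity, too, rests on the symbol alone. The related adaptor GRB10 measured between 0.215 and 0.426 FPKM in the Y group and between 0.69 and 1.06 FPKM in the M group, a log2 difference of 1.19 (limma, adjusted p = 0.154). IRS1, a docking protein of IGF1R and the insulin receptor, measured 0.646, 0.63 and 0.618 FPKM in the Y group and 1.92, 0.848 and 1.18 FPKM in the M group, a log2 difference of 0.88 (limma, adjusted p = 0.168). All 3 genes were without overlap between the groups, which the rule for naming them required. Of all tested genes, 19.8% were without overlap and higher in the M group. The symbol of the insulin receptor, INSR, stood on 2 rows. The higher row (ENSBGRG00000014851), which the counts use, carries terms of a nucleotide exchange factor and had a log2 difference of -0.01, and the row with the terms of the insulin receptor (ENSBGRG00000014314) had one of 0.73 (limma, unadjusted p = 0.0307, adjusted p = 0.172).

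Differential m6A peaks lay on 5 of the 28 tested genes of these lists, 1 of them under a doubtful symbol, against 9.29% of all tested genes. Where a symbol had several rows, the row with a peak had been taken first, which raises the count. IRS1 carried a peak of 446 bp in its only exon (chr2:23760291-23760736). IRS2, the other main docking protein, carried a peak of 450 bp in exon 2 of 3 and a peak of 351 bp in exon 1, on chromosome 15, and had a log2 difference of 0.52 in the input libraries (limma, adjusted p = 0.263). HTRA1, a secreted protease that cleaves IGF binding proteins, carried a peak of 1621 bp in exon 8 of 9, and this row (ENSBGRG00000025045) had a log2 difference of 0.61 (limma, adjusted p = 0.199). Another row under the symbol HTRA1 (ENSBGRG00000025185), with terms of fertilization and growth factor activity and none of a protease, was lower in all M libraries by a log2 difference of -1.57 (limma, unadjusted p = 0.0109, adjusted p = 0.154) and is not taken as HTRA1 here. TSC2, a brake on mTOR signalling, carried a peak of 150 bp in exon 33 of 41 with a log2 difference of -0.03. The remaining peak and the single lower gene belong to a row with the symbol INS (ENSBGRG00000012314). That symbol stands on 8 identifiers, and the row with the terms of insulin (ENSBGRG00000010351) is listed at 0 in every library, so the row with the peak is not taken as insulin here.

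Downstream of the receptors, 2 of 8 tested genes of PI3K, AKT and FOXO signalling were higher in the M group. FOXO1, a transcription factor held out of the nucleus by AKT, measured 5.18, 4.34 and 3.97 FPKM in the Y group and 10.8, 6.83 and 8.9 FPKM in the M group. Its log2 difference was 0.94 with a standard error of 0.20 (limma, unadjusted p = 0.00231, adjusted p = 0.154). In the growth hormone axis, which drives IGF1 production in liver, STAT5A was higher in the M group by 0.79 on the log2 scale (limma, adjusted p = 0.157), and the row of the receptor GHR, which carries transposition terms, stayed below 0.4 FPKM in all 6 libraries and was not tested. None of the 3 mRNA-binding proteins of the IGF2BP family, which include readers of m6A, had an unadjusted p below 0.05, with log2 differences of 0.28, 0.26 and 0.23. The same held for the 3 tested genes of lysosomal sorting. The row under the symbol of M6PR, the smaller mannose 6-phosphate receptor, had a log2 difference of 0.11 but carries terms of a ribosomal protein. Of the 3 tested proteins of IGF binding and release, 0 passed at an unadjusted p below 0.05. IGFBP1, a binding protein made mainly by the liver, was at 0.192 FPKM in Y replicate 3 and listed at 0 in the other libraries.

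The members higher in the M group had the same order of M libraries as the summed markers of Sertoli cells, peritubular cells and spermatogonia. Over all genes, too, M replicate 1 was the least like the Y libraries and M replicate 2 the most. The order is thus not particular to these members or cell types, and the share of all genes with it was not counted. On the log2 scale and relative to the Y mean, M replicates 1, 2 and 3 stood at 1.65, 0.39 and 0.72 for the summed Sertoli markers and at 1.14, 0.49 and 0.92 for the summed peritubular and stromal markers. The summed markers of spermatogonia, the germ cells before meiosis, stood at 1.01, 0.10 and 0.26, and 0 of their 5 tested genes had an unadjusted p below 0.05 (limma). The corresponding member values were 1.22, 0.33 and 0.87 for IGF2R, 2.87, 0.82 and 2.61 for IGFBP5, 1.57, 0.96 and 1.56 for IGFBP6, and 1.66, 0.48 and 1.15 for IGFBP7. In each of these genes M replicate 1 was the highest and M replicate 2 the lowest of the M libraries. Elongating spermatid markers had the opposite order, at -2.16, -0.47 and -0.68. Single genes dominate some of the sums. In M replicate 1, DMRT1 and UCHL1 measured 64.8 and 38.1 of the 111 FPKM summed for spermatogonia. INHA measured 211 of the 257 FPKM summed for Sertoli cells in that library. At an unadjusted p below 0.05 (limma), all 6 tested Sertoli markers and 4 of 6 peritubular and stromal markers were higher in the M group. The share of all tested genes was 14.2%. At an adjusted p below 0.05 (limma) the count was 0 in both lists. None of the 4 tested endothelial markers was higher at an unadjusted p below 0.05. The part of cell composition in the member values was not tested. IGF1R had another order, at -0.08, 0.21 and 0.17. So had the summed markers of macrophages, at 0.01, 0.82 and 0.57, and of endothelial cells, at -0.06, 0.02 and 0.45. The low sums of erythroid and epididymal markers, however, also had M replicate 1 highest and M replicate 2 lowest. They stood at 0.87, -0.29 and 0.76 and at 0.03, -0.81 and -0.43. Of the Leydig markers only CYP11A1 and STAR had a row, and their sums were 10.1, 19.1 and 10.7 in the Y group and 7.4, 8.4 and 7.87 in the M group.

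**Figure D5:**
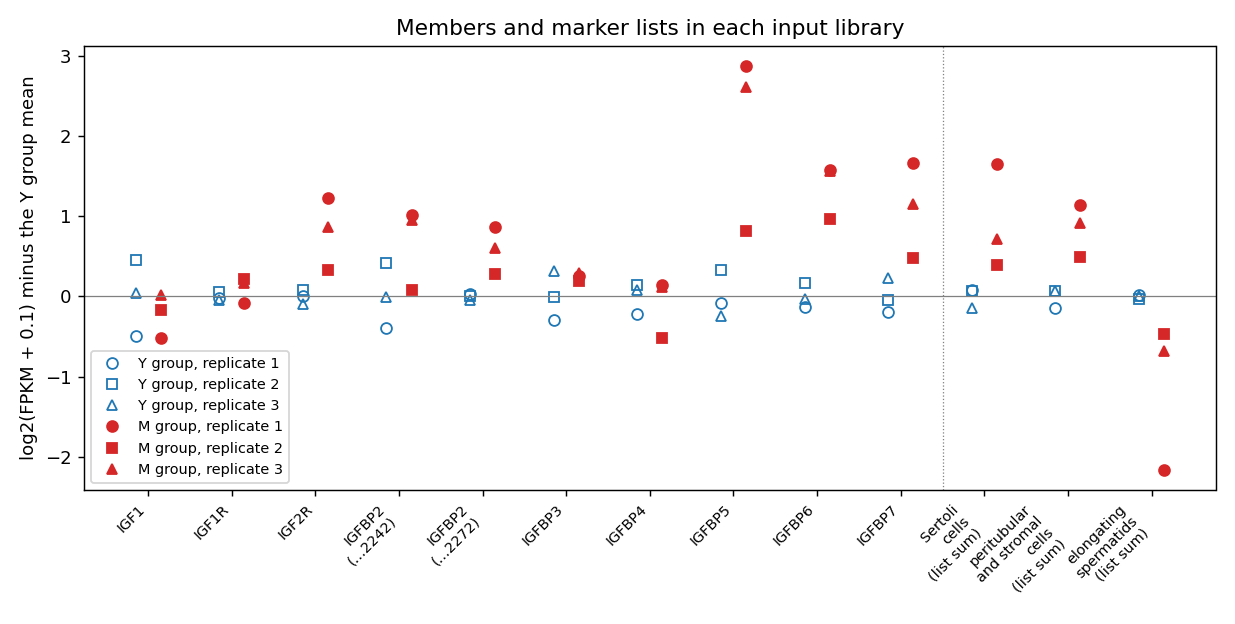
Difference of log2(FPKM + 0.1) from the Y group mean for the 10 tested rows (left of the dotted line) and for the summed FPKM of 3 marker lists (right), with 1 symbol per input library. For IGF2R, IGFBP5, IGFBP6, IGFBP7 and the Sertoli list, M replicate 1 is highest and M replicate 2 lowest among the M libraries, and the spermatid list shows the reverse.

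The gene with the most similar profile over the 6 input libraries, by Pearson correlation of log2(FPKM + 0.1), is given for 8 of the 10 tested rows. These were RRP12 for IGF2R (r = 0.9985), PKIA for IGFBP5 (0.9981), LTA4H for IGFBP6 (0.9979), TRAK2 for the IGFBP2 row ENSBGRG00000002242 (0.994), RTKN2 for IGF1R (0.995), NPRL3 for IGF1 (0.9898), ZNF281 for IGFBP3 (0.9955) and FMC1 for IGFBP4 (0.9863). All genes share the 6 libraries and the contrast of the groups, and the number of genes with r above 0.95 differed widely between the members. It was 967 for IGF2R, 631 for IGFBP5, 595 for IGFBP7, 379 for IGFBP6, 1000 for the IGFBP2 row without overlap and 117 for the other. In contrast, it was 15 for IGF1, 14 for IGF1R, 20 for IGFBP3 and 8 for IGFBP4.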

How the data were processed

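FPKM values per gene and input library were used as deposited by the authors. Per the study's methods, reads were trimmed with Trimmomatic, freed of rRNA reads with SortMeRNA and aligned with HISAT2 (2.0.4 per the submitters' processing notes) to LU_Bosgru_v3.0, and uniquely mapped reads were kept. The program that gave FPKM is not given in the sources used here, and without fragment numbers no count test or detection limit was possible. Positions and widths of differential peaks in bp (a measure of another kind, taken from the deposited table) come from MeTDiff, which per the methods compared the ages at a p of at most 0.05 and a fold of at least 1.5, and from ChIPseeker. How replicates entered is not given. Lists of peaks of single groups are held only in part and were not used.

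Differences between the ages were fitted in limma 3.58.1 (R 4.3.3; lmFit, then eBayes with a mean trend, two-sided). Values were log2(FPKM + 0.1), for all 12437 genes whose mean reached 0.5 FPKM, with Benjamini-Hochberg adjustment over all of them and 95% confidence intervals. Fold changes are on this scale and understate those of low genes. The p-values rest on 3 animals per group. In simulated data, an adjusted p below 0.05 (limma) recovered 75% of 200 genes with a log2 difference of 2. It recovered 20% of 200 genes with one of 1. The simulation drew every gene independently, with the same spread in both groups. It held no difference between libraries shared by many genes, such as the position of M replicate 2. These shares therefore need not hold for the real comparison. Summaries and plots used scipy 1.17.1, numpy 2.4.6, matplotlib 3.10.9 and pandas 2.3.3 under Python 3.11.15.

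The members and lists were chosen with earlier results of these data known. Named were all rows of the member symbols, and from the pathway lists up to 3 genes per list by smallest p, without overlap and with an unadjusted p below 0.05, and every gene with a differential peak, and for each tested member the gene with the most similar profile. Some genes that the rule selects are not reported here. INSR, GHR, IGFBP1, M6PR and the IGF2BP family fall outside this rule and were chosen after their values were seen. More than 1 identifier carries the same symbol for 3871 symbols. For those, the row with a peak was taken first and then the one with the highest mean, and levels of such genes are uncertain where reads were split. Alternatives were other pseudocounts, filters, scalings, forms of eBayes, a replicate block and each library left out. Gene sequences were not used here, since no genome of this build was at hand.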

Additional observations from a re-analysis of the deposited data

How the results depend on the processing

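With 3 animals per group, adjusted p-values depended on M replicate 2, the M library nearest to the Y group, and the cause of its position was not tested. Over 16 alternatives for 10 rows, 153 of 160 member results kept their sign and side of an unadjusted p of 0.05 (limma), 4 moved to below it and 3 changed sign. The sign changed for IGF1 without Y replicate 2 (0.01) and for IGFBP4 with libraries scaled to the FPKM sum (0.04) and without M replicate 2 (0.13). Leaving out single libraries gave -0.47 to 0.01 for IGF1 and -0.20 to 0.13 for IGFBP4. The 4 that moved below 0.05 all concern the IGFBP2 row ENSBGRG00000002242. The count of members higher at an unadjusted p below 0.05 was 5 or 6 in every alternative and that of lower members 0. The count of members with an adjusted p below 0.05 was 0, except 6 without M replicate 2, so that leaving out single libraries gave 0 to 6. The difference in the log2 ratio of IGF2R to IGF1R ranged from 0.41 to 1.0.

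For the pathway lists, leaving out single libraries gave 3 to 10 higher and 0 to 1 lower genes. The count of lower genes was 2 with no filter and 0 with a mean of at least 1 FPKM, with scaling to the FPKM sum and with a replicate block. Over all genes, leaving out single libraries gave 1034 to 2713 higher and 607 to 2279 lower genes at an unadjusted p below 0.05, and 0 to 2403 genes at an adjusted p below 0.05. The last count was 4 in the reported analysis, 2 with a pseudocount of 0.01, 8 with no filter, 2 with a mean of at least 1 FPKM, 9 without a trend in eBayes and 1 with a replicate block. Scaling changed the split of 1767 higher and 1356 lower genes to 2419 and 1055 (FPKM sum, which moved the median log2 difference of all genes to 0.166) or to 1439 and 1689 (median scaling). Of the 4 member peaks, 1 is at most 1000 bp wide.

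The replicate numbers were not treated as pairs, since each input library came from a different yak. Deviations from the group means correlated at -0.02222, -0.09088 and 0.006678 for same-numbered libraries. For libraries of unlike number they correlated between -0.1305 and 0.1442. With so few libraries, whose deviations sum to 0 within each group, these correlations cannot decide whether same-numbered libraries share anything. A replicate block left 5 members higher, 0 lower and 0 at an adjusted p below 0.05, and gave 1403 higher and 1162 lower genes over the table.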
